A study of Mus musculus with 8 samples.

Results

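The genes described here are the cytokines, chemokines and their receptors, chosen by gene symbol alone: the numbered CXC and CC chemokines and Cx3cl1, the chemokine receptors, every numbered interleukin and interleukin receptor except Il17rd, and the TNF superfamily ligands that carry a Tnfsf symbol. The symbols took in 148 of 53170 named genes, among them 2 that encode neither a ligand nor a receptor, Il4i1, an amino acid oxidase, and Il1bos, an RNA antisense to Il1b. RNA had been sequenced in 8 libraries from organoids, hollow epithelial structures, grown from the hindstomach of mouse embryos at day 18.5. The organoids were kept for 5 days in growth medium. The 4 control libraries had the genotype Shh-Cre and the other 4 the genotype Shh-Cre;YAP5SA. Both groups thus carry the Cre recombinase driven by Shh, which is active in the foregut epithelium, and only the second carries YAP5SA, an active form of the coactivator YAP. No label says whether the libraries of a group came from separate embryos or cultures. Every p-value thus sets the difference of the groups against the scatter among these libraries, which could be technical scatter.

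Cytokines are secreted or membrane-bound signals that bind receptors on nearby cells, and chemokines are the small cytokines that steer migrating cells. Epithelia take part on both sides: they release alarmins such as IL-33 and IL-18 and chemokines that attract leukocytes, and they carry receptors for interleukins of immune cells. Receptors of the IL-1 family signal through the adaptor MYD88 to NF-kB, those of the class I and class II families signal through JAK kinases and STAT factors, and TNF ligands bind receptors of the TNF receptor superfamily.

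The libraries held between 13672268 and 19710648 counts. Levels are given as CPM, which puts the counts of all libraries on 1 scale by their effective sizes, and means are given ± SD over the 4 libraries of a group. A log2 ratio is the fitted level in YAP5SA over that in controls. All 7 epithelial markers were measured, and their sum was 7785 to 8360 CPM in controls and 6433 to 6667 CPM in YAP5SA. Of 23 immune cell markers, 4 were counted often enough to test, and the 23 summed to 86.8 to 104.9 CPM in controls and 19.7 to 22.7 CPM in YAP5SA. Cd14 (63.9 ± 6.6 and 10.1 ± 1.5 CPM) and Cd68 (28.6 ± 8.0 and 7.88 ± 1.1 CPM) made up most of that sum and fell. Of the other 2 tested, Kit fell, with 124 and 3 counts, and Csf1r, the receptor of Csf1 and Il34, rose (0.19 ± 0.07 CPM in controls, 1.49 ± 0.60 CPM in YAP5SA; adjusted p = 3.25e-05). Kit passed the filter on low counts through controls alone and Csf1r through YAP5SA alone, which selects for a difference. The pan-leukocyte gene Ptprc had 36 and 26 counts and Ms4a1, Cpa3 and Mcpt4 had 0. In the library where it was highest, the sum was 4.61 CPM for 13 mesenchymal markers, 14.8 CPM for 9 endothelial, 14.0 CPM for 9 enteric neural and 0.91 CPM for 6 erythroid markers. The 6 mesothelial markers summed to 5082 to 5632 CPM in controls and 3056 to 3632 CPM in YAP5SA, nearly all of it Msln and Krt7, which fell. By gene the list was split, since Upk3b (4.23 ± 0.30 CPM in controls, 18.6 ± 2.5 CPM in YAP5SA) and Lrrn4 (3.76 ± 1.6 CPM in controls, 7.58 ± 2.7 CPM in YAP5SA) rose, and the median log2 ratio of its 4 tested genes was 0.45. Wt1, a defining mesothelial gene, had 0 and 3 counts. Sex went with genotype. Xist, the RNA of the inactive X chromosome of female cells, was at 675.6 to 1049 CPM in controls and 0.41 to 2.76 CPM in YAP5SA, so genotype and sex cannot be told apart in any result that follows. In bulk RNA, fewer cells that express a gene and less of its RNA per cell cannot be told apart either.

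Most cytokine genes had few or no counts in both groups. Of the 148 members, 41 passed the filter on low counts and were tested, and 107 did not pass it. Of these 107, 25 had 0 counts in all libraries, 48 had 1 to 9 counts and 34 had 10 or more, and none averaged above 0.74 CPM in a group. A group with 0 counts may hold a level of up to 0.0446 CPM in controls and 0.0454 CPM in YAP5SA, by the 3 counts that a count of 0 allows over the group. Among the 41 tested, 29 passed the test (edgeR, Benjamini-Hochberg adjusted p below 0.05 over all 14058 tested genes), 10 higher and 19 lower in YAP5SA, where 49.1% of all tested genes passed, 23.6% higher and 25.5% lower. Members that passed with a fold of at least 2 numbered 6 higher and 9 lower, where the shares of all tested genes were 5.26% and 8.59%. The ranges of both groups stayed apart in 28 members, where the share of all tested genes was 45.7%. The median log2 ratio of the tested members was −0.19, also with Tnfsf4 at its bound, beside 0.00 over all tested genes. These counts only describe the members, because 10 of the 41 (Cxcl1, Il15, Il17rb, Il18bp, Il1r2, Il1rl2, Il6ra, Tnfsf13, Tnfsf18 and Tnfsf4) passed the filter through 1 group alone, which selects for a difference.

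A single gene held most of the members' RNA in controls. Il33, which encodes the alarmin IL-33, a nuclear cytokine that barrier cells release on damage, made up 57.9%, 63.8%, 60.4% and 60.3% of the summed level of all members in controls 1 to 4. In YAP5SA 1 to 4 it made up 12.6%, 12.6%, 12.7% and 12.1%. The summed level of all members was 2029 to 2221 CPM in controls and 819.3 to 864.0 CPM in YAP5SA. Without Il33 the sums lay much closer, at 805.0 to 874.1 CPM and 720.1 to 754.5 CPM, and still did not overlap.

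**Figure D1:**
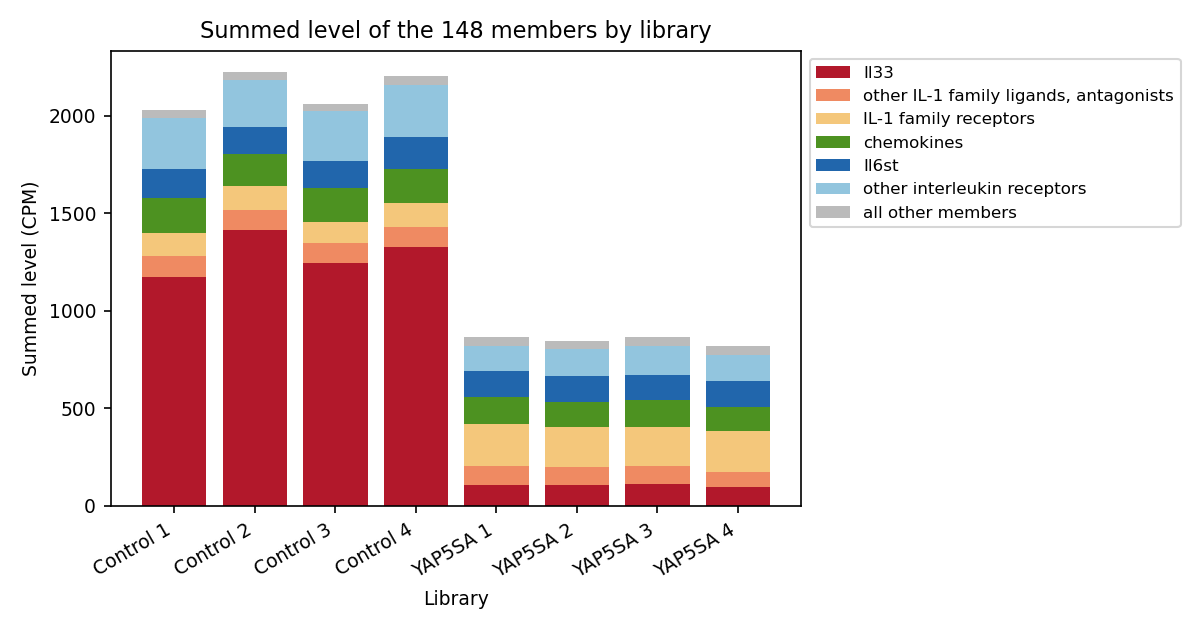
Stacked bars give the summed level (CPM, vertical axis from 0) of the 148 members in each library (horizontal axis, 4 control and 4 YAP5SA), with a colour for each group of members. Il33 is the tallest block in controls (57.9% to 63.8% of the sum) and shrinks to between 12.1% and 12.7% in YAP5SA, while the block of IL-1 family receptors widens.

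The stretches upstream of the start sites of Il33, Il1rl2 and Tnfsf18 are shown because these genes made some of the larger moves of the set and because YAP acts on DNA through the TEAD factors. Each is the 250 bases before a start, from RefSeq (GRCm38.p6), 5′ to 3′ on the strand of the gene, with matches to the TEAD core GGAATG on either strand in capitals. Il33 has 2 starts in that table, and each has 1 match, 131 bases and 107 bases before the start. Tnfsf18 has 1 match, 132 bases before the start, and Il1rl2 has none in this window.
Il33 first start, chr19:29924863-29925112, plus strand: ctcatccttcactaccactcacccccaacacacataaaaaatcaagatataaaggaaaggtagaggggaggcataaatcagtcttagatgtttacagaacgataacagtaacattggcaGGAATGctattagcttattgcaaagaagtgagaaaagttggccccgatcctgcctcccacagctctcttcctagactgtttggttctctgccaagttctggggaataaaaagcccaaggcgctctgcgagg
Il33 second start, chr19:29945540-29945789, plus strand: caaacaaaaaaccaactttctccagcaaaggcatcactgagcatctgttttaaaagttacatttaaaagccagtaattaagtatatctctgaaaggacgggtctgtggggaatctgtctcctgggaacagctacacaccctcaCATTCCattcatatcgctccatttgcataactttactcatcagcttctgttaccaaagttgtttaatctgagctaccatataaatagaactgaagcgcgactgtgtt
Il1rl2, chr1:40324339-40324588, plus strand: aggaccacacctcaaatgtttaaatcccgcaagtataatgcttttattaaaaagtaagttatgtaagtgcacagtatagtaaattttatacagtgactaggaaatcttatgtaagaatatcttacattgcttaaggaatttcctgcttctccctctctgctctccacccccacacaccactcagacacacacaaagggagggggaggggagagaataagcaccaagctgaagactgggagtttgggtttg
Tnfsf18, chr1:161494407-161494656, plus strand: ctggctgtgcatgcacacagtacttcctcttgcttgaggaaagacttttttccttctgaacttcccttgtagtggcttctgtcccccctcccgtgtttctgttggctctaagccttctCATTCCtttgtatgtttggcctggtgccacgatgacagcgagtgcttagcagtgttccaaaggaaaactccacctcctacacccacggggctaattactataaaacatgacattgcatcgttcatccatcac

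The table holds 33 of the 41 tested members, with 45 starts. Cxcl16, Cxcl17, Il10rb, Il15, Il17ra, Il34, Tnfsf4 and Tnfsf9 are missing from it. GGAATG was found before 11 of the 45 starts (24.4%), in 10 members, and before 12.6% of all 32851 starts in the table. Windows of neighbouring starts of a gene can overlap. The 10 members were Ccl20, Il11ra1, Il33 and Il1rn, which fell, Il1r1, Tnfsf13 and Tnfsf18, which rose, and Il15ra, Il17re and Il4, which did not pass the test. On either strand, the AP-1 core TGANTCA stood before 6 starts (13.3%, all starts 6.75%), the STAT core TTCNNNGAA before 2 (4.44%, all starts 7.02%) and the NF-kB consensus before 4 (8.89%, all starts 7.25%). A match to letters describes the sequence and does not show that a factor binds there.

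Among the ligands of the IL-1 family, Il33 fell steeply and Il18 rose. Il33 was at 1175, 1416, 1244 and 1326 CPM in controls 1 to 4 and at 108.5, 106.5, 110.1 and 99.2 CPM in YAP5SA 1 to 4. Every YAP5SA library was more than 10-fold below every control, and the fitted level was 12.2-fold lower (log2 ratio −3.60, SE 0.07, adjusted p = 1.68e-17). Il18, an alarmin stored as an inactive precursor, had 10.9, 12.8, 10.8 and 8.55 CPM in controls and 16.3, 17.7, 16.0 and 15.4 CPM in YAP5SA. Its groups did not overlap, and it rose 1.51-fold (log2 ratio 0.59, SE 0.12, adjusted p = 0.000336).

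Il1rn, which encodes the antagonist that blocks the IL-1 receptor, stood at 95.0, 84.7, 91.0 and 94.1 CPM in controls and at 76.7, 74.2, 74.2 and 59.3 CPM in YAP5SA. It fell 1.28-fold (log2 ratio −0.36, SE 0.07, adjusted p = 0.000578), with YAP5SA 4 lowest of all. Il18bp, the soluble protein that binds IL-18, was at 0.84 ± 0.20 and 1.31 ± 0.37 CPM and did not pass the test, with a 95% interval of −0.04 to 1.33 for the log2 ratio. Of its 3.026 kb of exon in the GENCODE M21 annotation, it shares 80 bases with Numa1 on the other strand, at 125.8 and 140.7 CPM. The part of those shared bases in its few reads was not tested. Agonists of the IL-1 receptor itself were scarce: Il1a had 37 and 26 counts in controls and YAP5SA, and Il1b had 2 and 1.

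Of 6 tested receptors of the IL-1 family, 4 rose and 1 fell, where 23.6% and 25.5% of all tested genes did. Il1r2 and Il1rl2 are among the genes that passed the filter through YAP5SA alone. The largest rise was that of Il1rl2, the receptor chain that binds the IL-36 cytokines. Its level was 0.44, 0.54, 1.02 and 1.5 CPM in controls and 41.6, 39.9, 42.7 and 37.0 CPM in YAP5SA. Controls were low and differed among themselves by more than 3-fold, while the YAP5SA libraries lay close together and the fitted level rose 47.0-fold (log2 ratio 5.55, SE 0.18, adjusted p = 2.53e-14). The IL-36 ligands had next to no counts: Il36a and Il36b had 0 in all libraries, Il36g had 3 and 1 in controls and YAP5SA, and Il36rn, the antagonist of the same receptor, had 11 and 11.

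Il18r1, the chain that binds IL-18, rose 2.55-fold, from 17.6, 14.1, 18 and 17.6 CPM to 41.2, 40.1, 47.1 and 43.1 CPM (log2 ratio 1.35, SE 0.09, adjusted p = 5.42e-10). Il18rap, the accessory chain that this receptor needs to signal, was at 1.73 ± 0.27 and 2.09 ± 0.65 CPM and did not pass the test (interval of the log2 ratio −0.31 to 0.83). So Il18 and its binding chain were both higher in every YAP5SA library than in any control, and the accessory chain was low in both groups. Il1r1, the signalling IL-1 receptor, had the highest level of the family in CPM and rose 1.31-fold, from 87.5, 99.6, 78.0 and 90.8 CPM to 125.2, 114.9, 104.9 and 121.1 CPM (log2 ratio 0.39, SE 0.07, adjusted p = 0.000228). Il1r2, a decoy that binds IL-1 without signalling, rose from a low level (0.53 ± 0.15 CPM in controls, 2.04 ± 0.28 CPM in YAP5SA; log2 ratio 1.95, SE 0.31, adjusted p = 4.25e-05).

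Il1rap, the accessory chain shared by the receptors for IL-1, IL-33 and IL-36, was the member of the family that fell. It was at 10.1, 7.31, 9.16 and 8.93 CPM in controls and 4.98, 4.36, 4.57 and 4.42 CPM in YAP5SA, 1.93-fold lower with no overlap (log2 ratio −0.95, SE 0.14, adjusted p = 1.75e-05). Il1rl1, the IL-33 receptor ST2, had 18 and 0 counts, too few to pass the filter, so that in controls it averaged 0.27 CPM where Il33 was at 1175 CPM or more. Summed over the 9 members of the receptor family, levels were 108.9 to 124.0 CPM in controls and 203.2 to 217.9 CPM in YAP5SA.

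Most of these receptor genes lie side by side. In RefSeq's GRCm38.p6 annotation the genes named here run in the order Map4k4, Il1r2, Il1r1, Il1rl2, Il1rl1, Il18r1, Il18rap, Slc9a4 and Slc9a2 on chromosome 1. Il1r2, Il1r1, Il1rl2 and Il18r1 rose, Il1rl1 had 0 counts in YAP5SA, and Il18rap did not pass the test. Of the flanking genes, Map4k4, which encodes a kinase, was at 195.1 and 182.6 CPM and did not pass the test (adjusted p = 0.179), and Slc9a4, which encodes a sodium/proton exchanger, fell from 60.5 to 0.31 CPM (adjusted p = 8.79e-14). Slc9a2 fell in the same test from 13.4 to 0.11 CPM (adjusted p = 9.89e-13).

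**Figure D2:**
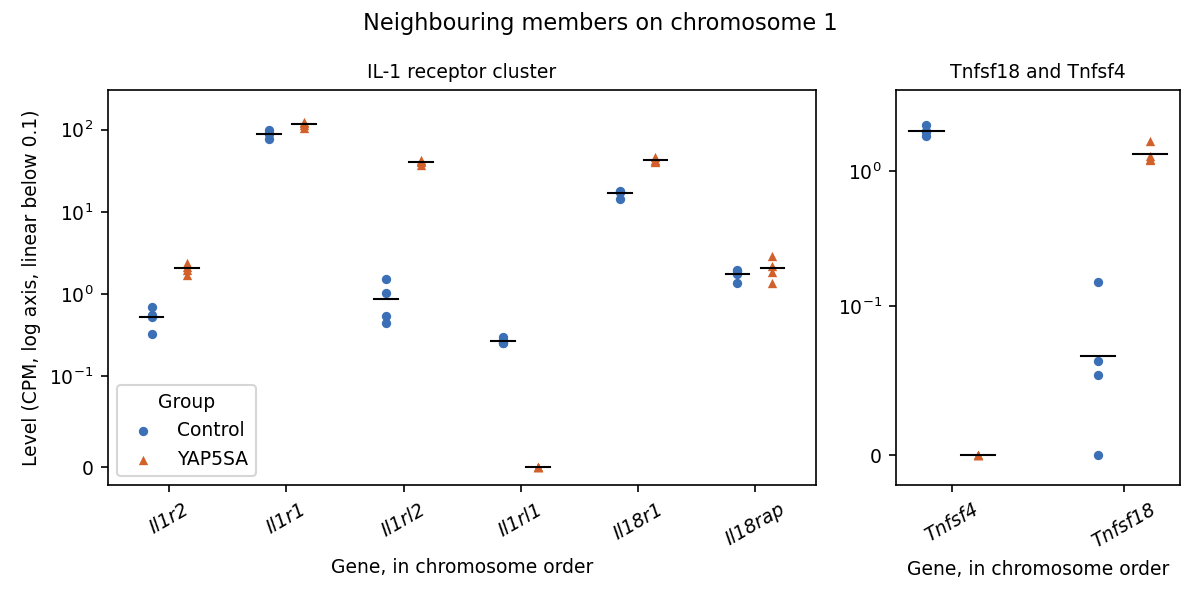
Points give the level (CPM, vertical axis, logarithmic except near 0) of neighbouring genes on chromosome 1 in each library, by group, with a bar at the mean of 4 libraries; genes stand in chromosome order. In the IL-1 receptor cluster Il1rl2 goes from at most 1.5 CPM to at least 37.0 CPM while Il1rl1 goes to 0, and Tnfsf4 and Tnfsf18 are each close to 0 in the group where the other is counted.

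All 5 tested chemokines of the CXC and CX3C type were lower in YAP5SA, where 25.5% of all tested genes were, and Cxcl1 had passed the filter through controls alone. The steepest fall was that of Cxcl15, a neutrophil chemokine of mice known as lungkine. It was at 12.8, 9.53, 12.1 and 10.2 CPM in controls and at 2.40, 2.43, 3.22 and 3.71 CPM in YAP5SA, 3.79-fold lower (log2 ratio −1.92, SE 0.16, adjusted p = 2.23e-08). Cxcl1, a ligand of the neutrophil receptor CXCR2, fell as well at a low level (0.89 ± 0.10 CPM in controls, 0.26 ± 0.17 CPM in YAP5SA; log2 ratio −1.77, SE 0.44, adjusted p = 0.0028).

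The other 3 chemokines of these types had smaller folds. Cxcl17, a chemokine of mucosal surfaces, was at 46.7, 49.1, 53.8 and 41.8 CPM in controls and 30.4, 31.7, 38.0 and 26.6 CPM in YAP5SA (log2 ratio −0.60, SE 0.10, adjusted p = 8.47e-05). Cx3cl1, the membrane-bound chemokine fractalkine, was at 41.4, 32.4, 32.5 and 44.8 CPM and at 24.7, 25.4, 23.6 and 25.4 CPM (log2 ratio −0.60, SE 0.10, adjusted p = 7.14e-05). Neither gene had overlapping groups, and each was 1.52-fold lower. Cxcl16, another membrane-bound chemokine, was at 64.2, 57.5, 61.7 and 63.5 CPM in controls and 60.0, 52.8, 53.4 and 49.8 CPM in YAP5SA. Its groups overlapped and the fall was small (log2 ratio −0.19, SE 0.07, adjusted p = 0.0254). It no longer passed without control 1 or YAP5SA 2, 3 or 4 (adjusted p = 0.0567, 0.0585, 0.051 and 0.085; 0.00639 to 0.085 over the 17 alternatives).

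Of the 24 CC chemokines 3 were tested. Ccl25, which attracts lymphocytes to the gut and thymus, rose 1.81-fold, from 6.38, 5.52, 4.94 and 7.20 CPM to 12.7, 8.45, 11.1 and 11.0 CPM (log2 ratio 0.86, SE 0.15, adjusted p = 0.00012). Even the lowest YAP5SA library was above the highest control. Its exons share 204 bases with Elavl1 on the other strand, at 99.4 and 99.7 CPM, and the part of those shared bases in the result was not tested. Ccl20, the ligand of CCR6, had 2.84, 6.44, 3.36 and 1.95 CPM in controls and 2.07, 1.55, 2.64 and 2.36 CPM in YAP5SA. The control mean rests largely on control 2: the log2 ratio was −0.79 (adjusted p = 0.0471), and −0.36 without that library (adjusted p = 0.28). The call was also lost without control 3 or YAP5SA 1, 2 or 4 (adjusted p = 0.0572, 0.0933, 0.131 and 0.0632; 0.00474 to 0.28 over the 17 alternatives). Ccl27a, a skin chemokine with close copies, did not pass the test (1.73 ± 0.35 and 1.86 ± 0.64 CPM).

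Chemokine receptors had few counts. Of 16, only Cxcr4, the receptor of CXCL12, was tested. It went from 5.12, 5.04, 4.12 and 5.25 CPM to 1.36, 1.27, 2.06 and 1.30 CPM, 3.26-fold lower (log2 ratio −1.70, SE 0.21, adjusted p = 2.57e-06), while its ligand gene Cxcl12 had 1 and 1 counts. For some of the chemokines above, receptor genes were looked at and were hardly counted in controls and YAP5SA. Cxcr2 had 4 and 8, Cxcr6, the receptor of CXCL16, had 10 and 4, and Cx3cr1, the receptor of fractalkine, had 5 and 2. Ccr9, the receptor of CCL25, had 9 and 6, and Ccr6 had 0 and 1. The list of 5 atypical receptors, which bind chemokines without the usual signalling, had 2 tested genes: Ccrl2 rose (2.56 ± 0.19 CPM in controls, 4.89 ± 0.56 CPM in YAP5SA) and Ackr3 did not pass the test (0.94 ± 0.54 and 0.74 ± 0.37 CPM).

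**Figure D3:**
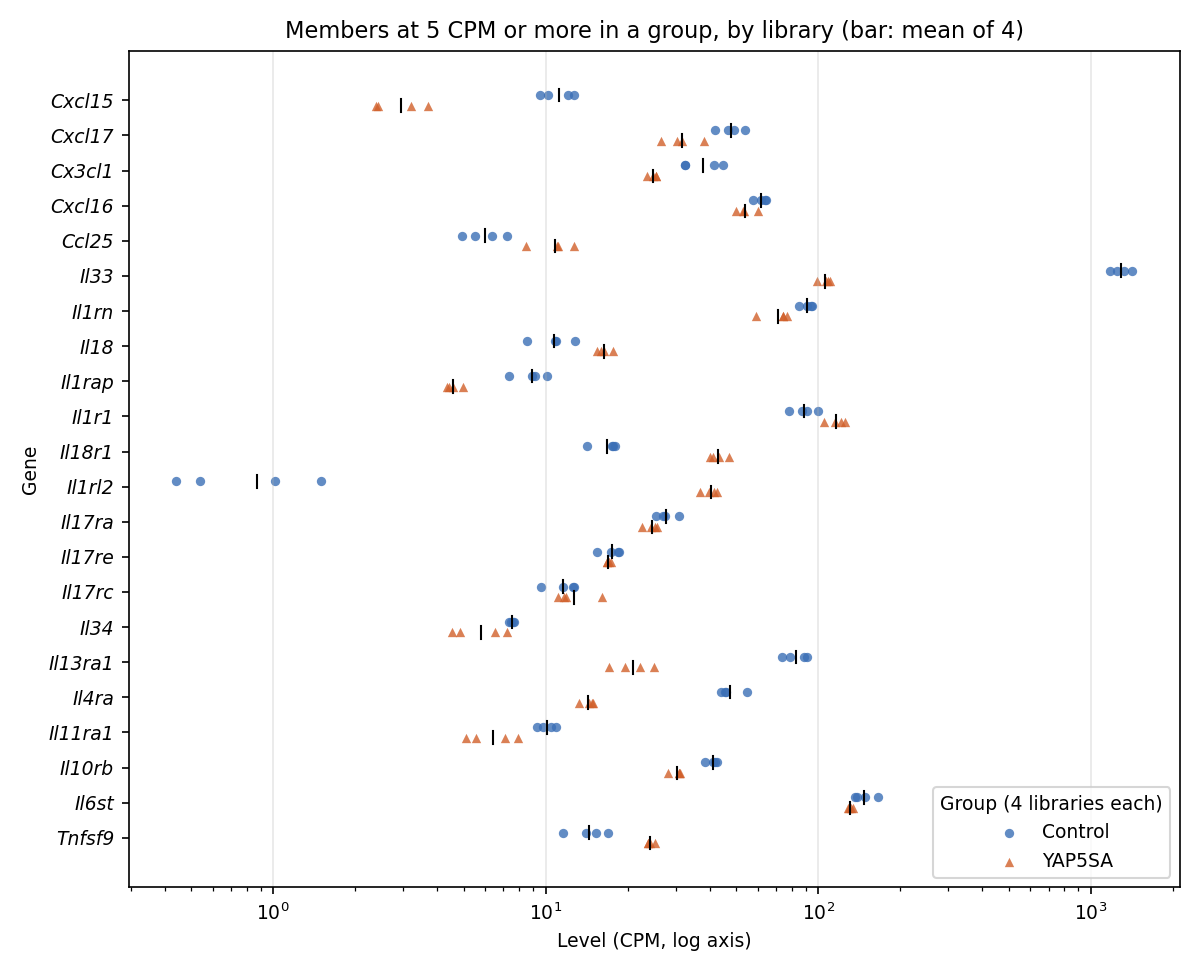
Each line of the plot is 1 of the 22 members that averaged at least 5 CPM in a group, with the level of each library (CPM, logarithmic horizontal axis) by group and a bar at the mean of 4 libraries. Il33 stands apart at the right in controls (1175 to 1416 CPM), and Il1rl2 has the widest gap between the groups.

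Both chains of the receptor that epithelial cells use for IL-4 and IL-13 fell. Il4ra, the chain that binds IL-4, was at 45.4, 45.7, 43.9 and 54.6 CPM in controls and at 13.3, 14.9, 14.5 and 14.8 CPM in YAP5SA, 3.29-fold lower (log2 ratio −1.72, SE 0.09, adjusted p = 1.27e-11). Il13ra1, which pairs with it, was at 88.5, 73.6, 91.2 and 78.9 CPM and at 17.1, 25.0, 22.3 and 19.5 CPM, 3.96-fold lower (log2 ratio −1.98, SE 0.10, adjusted p = 9.17e-11). Each chain was thus below every control in every YAP5SA library. Il13ra1 is an X-linked gene, and the groups differ in sex as given above. Il13ra2, the decoy receptor of IL-13, had 1 and 0 counts and Il13 had 0 and 1. Il4 itself did not pass the test (2.90 ± 0.75 and 2.50 ± 0.39 CPM; interval of the log2 ratio −0.70 to 0.25), and Stat6, the factor that this receptor activates, rose (84.3 ± 0.90 CPM in controls, 107.9 ± 4.0 CPM in YAP5SA).

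Receptors of the IL-6 family fell by unequal amounts. Il6ra, the IL-6 binding chain, was low at 3.03, 3.30, 3.26 and 4.43 CPM in controls and lower still at 0.97, 0.28, 0.51 and 0.59 CPM in YAP5SA, 5.96-fold (log2 ratio −2.58, SE 0.31, adjusted p = 1.87e-06). It had passed the filter through controls alone. Il11ra1, the IL-11 binding chain, went from 10.4, 9.26, 9.77 and 10.9 CPM to 5.11, 7.90, 7.08 and 5.54 CPM, 1.57-fold lower (log2 ratio −0.65, SE 0.14, adjusted p = 0.00105). Its close copy Il11ra2 had 1 and 0 counts, and how reads of the pair were divided is not known. Il6st, the common signalling chain gp130, had the highest receptor level of the set in CPM, 147.9, 138.2, 135.9 and 165.2 CPM in controls and 131.9, 133.9, 129.1 and 130.2 CPM in YAP5SA. Its fall was small (log2 ratio −0.16, SE 0.06, adjusted p = 0.0358) and was lost without control 1 or 4 or YAP5SA 1, 3 or 4 (adjusted p = 0.0534, 0.0826, 0.0538, 0.069 and 0.0668; 0.0126 to 0.0826 over the 17 alternatives). Ligands were scarce, with 1 and 0 counts of Il6 and 19 and 28 counts of Il11 in controls and YAP5SA. Other chains that pair with gp130 fell as well, Osmr (22.6 ± 2.6 CPM in controls, 7.73 ± 1.4 CPM in YAP5SA) and Lifr (59.5 ± 4.1 CPM in controls, 38.6 ± 2.2 CPM in YAP5SA), as did the ligand gene Lif (15.1 ± 1.0 CPM in controls, 7.93 ± 1.0 CPM in YAP5SA). These partner genes, like Stat6, were named after their values were seen.

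Il10rb, the chain shared by receptors for IL-10, IL-22 and interferon lambda, was at 41.2, 38.6, 42.4 and 41.9 CPM in controls and 30.9, 28.2, 31.0 and 31.1 CPM in YAP5SA, a 1.35-fold fall (log2 ratio −0.44, SE 0.07, adjusted p = 3.95e-05). Partners for cytokines of the IL-20 and IL-22 group did not pass the test: Il22ra1 was at 4.94 ± 0.73 and 4.38 ± 0.99 CPM (interval of the log2 ratio −0.55 to 0.22) and Il20rb at 2.23 ± 0.20 and 2.31 ± 0.67 CPM (−0.45 to 0.58). Il15, a cytokine that sustains intraepithelial lymphocytes, fell (2.64 ± 0.34 CPM in controls, 0.82 ± 0.24 CPM in YAP5SA; log2 ratio −1.67, SE 0.28, adjusted p = 6.59e-05), and its presenting receptor Il15ra did not pass the test (2.36 ± 0.37 and 2.04 ± 0.40 CPM). Il15 had passed the filter through controls alone. Il3ra, the IL-3 binding chain, fell (3.46 ± 0.37 CPM in controls, 1.90 ± 0.62 CPM in YAP5SA; log2 ratio −0.84, SE 0.23, adjusted p = 0.00583).

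Il34, a ligand of the macrophage receptor CSF1R, was at 7.58, 7.36, 7.43 and 7.65 CPM in controls and 4.85, 4.53, 7.21 and 6.54 CPM in YAP5SA. The groups did not overlap, but the difference did not pass (log2 ratio −0.38, SE 0.15, adjusted p = 0.051). It did pass without YAP5SA 3 or 4 (adjusted p = 0.016 and 0.0398), and with all libraries under limma-voom, another test (adjusted p = 0.0354). Over the 17 alternatives the adjusted p ran from 0.016 to 0.163.

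Of 4 receptors for IL-17 cytokines, 1 passed the test, where 49.1% of all tested genes did. That gene, Il17rb, had passed the filter through YAP5SA alone, which selects for a difference. Il17ra, the chain common to the family, was at 26.9, 27.5, 25.4 and 30.8 CPM in controls and 25.2, 22.6, 25.6 and 24.4 CPM in YAP5SA (interval of the log2 ratio −0.34 to 0.00, adjusted p = 0.0932). Il17re, which binds the epithelial cytokine IL-17C, was at 17.4, 18.6, 15.5 and 18.4 CPM and at 16.8, 16.7, 17.1 and 17.4 CPM (−0.23 to 0.15). Il17rc, a partner for IL-17A and IL-17F, was at 12.6, 9.58, 11.6 and 12.8 CPM and at 11.8, 11.7, 16.2 and 11.1 CPM (−0.15 to 0.41). None of these 3 passed, and the groups of each overlapped. Il17rb, the chain that binds IL-25, rose from a low level (0.31 ± 0.14 CPM in controls, 1.62 ± 0.52 CPM in YAP5SA; log2 ratio 2.36, SE 0.40, adjusted p = 8.98e-05). It shares 141 exon bases with Actr8 on the other strand, at 37.0 and 37.7 CPM, and the part of these bases in the result was not tested. Of the ligands, Il17a and Il17b had 0 counts in all libraries, Il17c had 2 and 3 counts, Il17f 1 and 1 and Il25 1 and 2, and Il17d did not pass the test (1.88 ± 0.26 and 1.76 ± 0.55 CPM).

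TNF superfamily ligands changed in both directions, with 3 of 4 tested members higher and 1 lower (all tested genes 23.6% and 25.5%). Tnfsf13, Tnfsf18 and Tnfsf4 had passed the filter through 1 group alone, which selects for a difference. Tnfsf9, the ligand 4-1BBL of lymphocyte receptors, was the only member of the 4 above 5 CPM. It rose 1.68-fold, from 15.3, 11.5, 14.0 and 17.0 CPM to 23.7, 23.7, 24.2 and 25.1 CPM (log2 ratio 0.75, SE 0.10, adjusted p = 9.72e-06). All YAP5SA libraries were above all controls. Gm11110 overlaps 192 of its exon bases on the other strand, at 6.39 and 8.48 CPM, and its part in the result was not tested.

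Tnfsf4 and Tnfsf18, neighbours on chromosome 1, were counted in opposite groups. Tnfsf4, the ligand OX40L, was at 2.21, 2.0, 1.83 and 1.95 CPM in controls and had 0 counts in all YAP5SA libraries, at least 43.9-fold lower by the level that 3 counts over YAP5SA would give (adjusted p = 1.35e-07). Tnfsf18, the ligand GITRL, had 4 counts over the controls and 1.29, 1.21, 1.67 and 1.24 CPM in YAP5SA, a ratio of pooled levels of 22.7 (95% counting interval 8.54 to 85.0, adjusted p = 2.13e-06). Tnfsf13, the ligand APRIL of B cell receptors, had 3 counts over the controls and 1.75, 1.55, 2.25 and 2.18 CPM in YAP5SA, a ratio of 43.1 (14.4 to 211.8, adjusted p = 1.87e-07). Its exons share 983 bases with the read-through gene Tnfsfm13 and 221 with Tnfsf13os, so reads of these genes cannot be told apart. The receptor genes Tnfrsf4 (OX40) and Tnfrsf18 (GITR), named after their values were seen, both rose (7.81 ± 0.71 CPM in controls, 12 ± 2.0 CPM in YAP5SA for Tnfrsf4; 3.38 ± 0.24 CPM in controls, 5.33 ± 0.31 CPM in YAP5SA for Tnfrsf18). Tnfrsf9, the receptor of 4-1BBL, had 50 and 15 counts, too few to test.

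**Figure D4:**
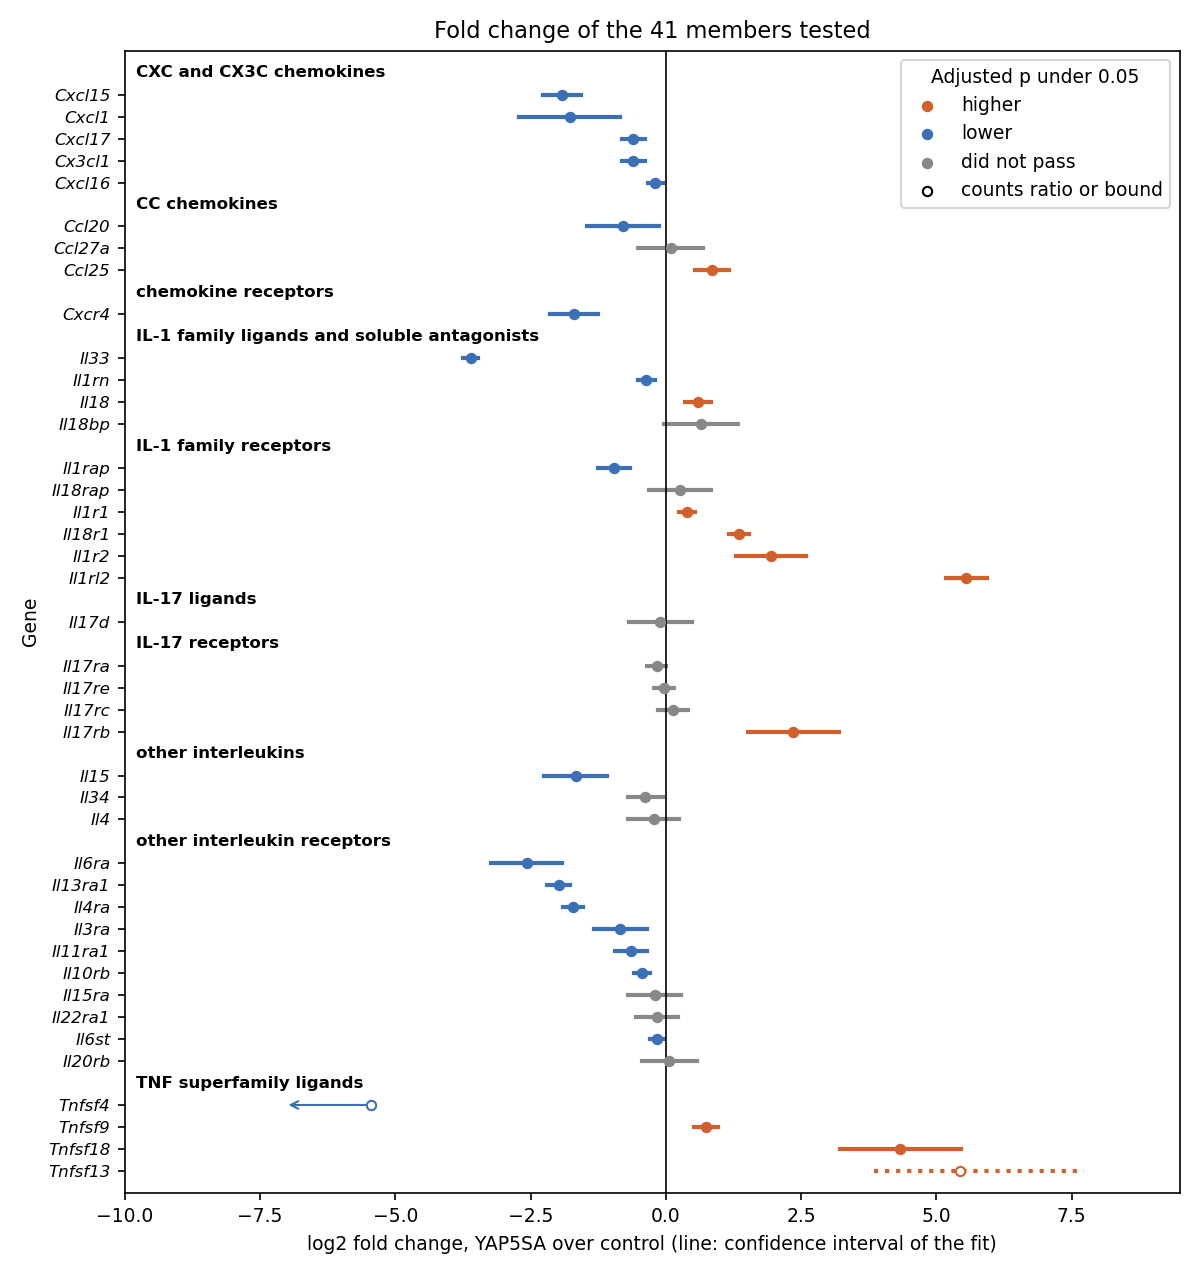
The log2 ratio of YAP5SA over control (horizontal axis) of each of the 41 tested members is grouped by family, with its 95% interval from the fit as a line and a colour for the call. Open points are ratios of pooled counts, a bound for Tnfsf4 (arrow) and a counting interval for Tnfsf13 (dotted); all 5 CXC and CX3C chemokines lie left of 0, and 4 of 6 IL-1 family receptors lie right of it with intervals that leave out 0.

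Levels of different genes can be set side by side only per length, here mean CPM per kilobase of exon in GENCODE M21. In controls Il33 led with 447.1, followed by Cxcl17 with 62.9, Il13ra1 with 22.4, Cxcl16 with 20.4 and Il1rn with 16.5. Of these neighbours, Il13ra1 and Cxcl16 lay within 1 SD of Il13ra1 (coefficient of variation 9.85%), and the other gaps were wider than the spread. In YAP5SA the order was Cxcl17 with 41.6, Il33 with 36.8, Tnfsf9 with 18.7, Il1r1 with 18.3 and Cxcl16 with 17.9. There, Cxcl17 and Il33 lay within 1 SD of Cxcl17 (coefficient of variation 15%), as did Tnfsf9, Il1r1 and Cxcl16 within 1 SD of Il1r1 (7.59%).

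Genes that work with the members were described from 7 lists with 116 tested genes, 24 of them higher and 58 lower, where the shares of all tested genes were 23.6% and 25.5%. As among the members, some of these genes passed the filter through 1 group alone, which selects for a difference. The counts of the lists thus only describe them. NF-kB subunits and feedback genes fell in 14 of 21 tested cases and rose in 2 (all tested genes 25.5% lower and 23.6% higher), with a median log2 ratio of −0.51. Tnip3, an inhibitor of NF-kB signalling, fell most clearly (39.5 ± 5.7 CPM in controls, 1.39 ± 0.52 CPM in YAP5SA; log2 ratio −4.84, SE 0.18, adjusted p = 1.77e-12), followed by Plaur, the urokinase receptor (45.2 ± 2.7 CPM in controls, 18.4 ± 2.8 CPM in YAP5SA), and Icam1, an adhesion molecule for leukocytes (9.98 ± 1.9 CPM in controls, 1.62 ± 0.43 CPM in YAP5SA). Cyld, a deubiquitinase with the highest level of the list in CPM, fell slightly (133.2 ± 6.4 CPM in controls, 112.5 ± 6.8 CPM in YAP5SA). Of the 4 immune cell markers tested, Cd14, Cd68 and Kit fell and Csf1r rose, while Ptprc had 36 and 26 counts in controls and YAP5SA. The part of immune cells in the list's counts was not tested.

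Other cytokines and their receptors had 15 of 22 tested genes lower and 5 higher (median −0.62), where 25.5% and 23.6% of all tested genes were. Ifngr1, the ligand-binding chain of the interferon gamma receptor, fell (169.7 ± 10.1 CPM in controls, 89.5 ± 3.4 CPM in YAP5SA; log2 ratio −0.92, SE 0.06, adjusted p = 1.78e-10), and so did Cmtm4 (254.8 ± 21.2 CPM in controls, 177.9 ± 3.1 CPM in YAP5SA) and Cmtm6 (181.0 ± 8.6 CPM in controls, 108.5 ± 6.7 CPM in YAP5SA), which encode chemokine-like membrane proteins. Csf1, the macrophage growth factor, rose (3.0 ± 0.39 CPM in controls, 12.7 ± 2.7 CPM in YAP5SA; log2 ratio 2.09, SE 0.17, adjusted p = 1.19e-08). Tnf was not tested, with 33 and 5 counts.

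Of 13 tested genes of the TNF receptor superfamily, 6 fell and 3 rose (median −0.17), where 25.5% and 23.6% of all tested genes did. The death receptor gene Fas fell (10.7 ± 1.7 CPM in controls, 2.08 ± 0.30 CPM in YAP5SA), as did Tnfrsf11a, the receptor RANK (4.59 ± 0.50 CPM in controls, 1.09 ± 0.32 CPM in YAP5SA), and Tnfrsf22, a decoy receptor with close copies, rose (26.9 ± 3.8 CPM in controls, 44.2 ± 2.0 CPM in YAP5SA). Tnfrsf21, a death receptor with the highest level of the list in CPM, did not pass the test (146.9 ± 14.3 and 131.9 ± 13.7 CPM).

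Genes that process IL-1 and IL-18 split into 4 higher and 5 lower of 12 tested (median −0.05), where 23.6% and 25.5% of all tested genes were. The inflammasome sensors Naip5 (10.1 ± 1.8 CPM in controls, 103.4 ± 2.5 CPM in YAP5SA; log2 ratio 3.36, SE 0.10, adjusted p = 5.44e-15) and Naip2 (29.5 ± 3.8 CPM in controls, 91.0 ± 5.3 CPM in YAP5SA), close copies of each other, rose, and Nlrc4, which NAIP proteins activate, fell (9.83 ± 1.5 CPM in controls, 0.40 ± 0.23 CPM in YAP5SA; log2 ratio −4.61, SE 0.26, adjusted p = 6.15e-11). Nlrc4 passed the filter on low counts through controls alone, which selects for a difference. Casp1, the protease that matures IL-18, had 1 and 2 counts.

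Receptor adaptors and kinases fell in 8 of 23 tested cases and rose in 4 (median −0.08), not far from the shares of all tested genes, 25.5% and 23.6%. Traf3, an adaptor of TNF receptors (54.5 ± 4.3 CPM in controls, 25.6 ± 4.1 CPM in YAP5SA), the I-kappa-B kinase gene Ikbkb (51.6 ± 3.1 CPM in controls, 37.6 ± 2.0 CPM in YAP5SA) and Traf3ip2, the adaptor of IL-17 receptors (31.5 ± 1.8 CPM in controls, 20.2 ± 2.9 CPM in YAP5SA), fell. Tab2, a kinase adaptor, rose (177.1 ± 8.3 CPM in controls, 197.5 ± 7.1 CPM in YAP5SA), but not without control 1 or YAP5SA 1 (adjusted p = 0.0654 and 0.056; 0.00104 to 0.0654 over the 17 alternatives). The JAK-STAT and SOCS list had 10 of 23 tested genes lower and 5 higher (median −0.12), where 25.5% and 23.6% of all tested genes were. Jak2, a kinase of several cytokine receptors, fell (119.0 ± 3.4 CPM in controls, 64.9 ± 3.8 CPM in YAP5SA), as did Socs6, of the SOCS family of feedback inhibitors (90.9 ± 7.6 CPM in controls, 63.2 ± 3.0 CPM in YAP5SA) and the kinase gene Jak1 (181.7 ± 3.1 CPM in controls, 163.4 ± 2.6 CPM in YAP5SA), and the kinase gene Pim3 rose (49.2 ± 2.7 CPM in controls, 74.7 ± 3.4 CPM in YAP5SA).

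**Figure D5:**
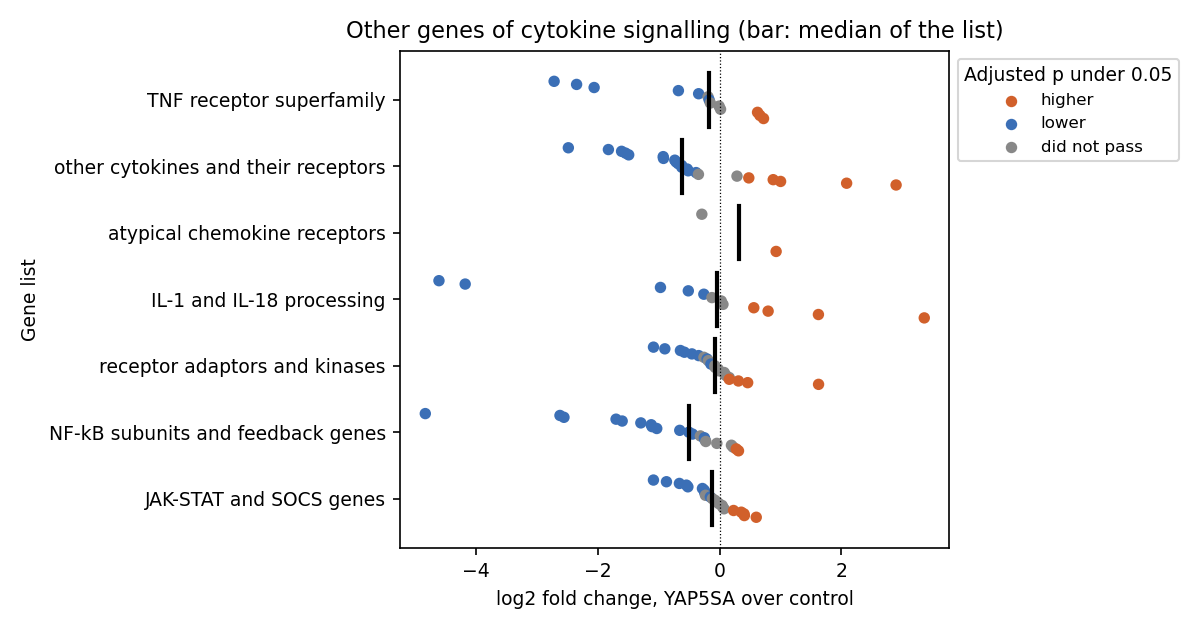
Each point is a tested gene of 1 of the 7 lists, placed by its log2 ratio of YAP5SA over control (horizontal axis) and coloured by its call, with a bar at the median of the list. The bars of the NF-kB list (−0.51) and of other cytokines and receptors (−0.62) lie furthest left.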

How the data were processed

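RNA of organoids was sequenced in 8 libraries as 150 bp reads, per the labels' protocols. The authors deposited whole-number read counts per gene, with no normalization. Tools listed by the submitters' processing notes are cutadapt, HISAT2 2.0.1 and HTSeq 0.6.1, with the build mm9. The sources used here give neither annotation nor strand setting, so reads of overlapping genes cannot be separated. Left out were 2639 lines with no gene name (0.190% to 0.221% of counts), and 959 lines sharing 77 symbols were summed.

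Genes passed filterByExpr (minimum count 10, minimum total 15). After TMM scaling, edgeR 4.0.16 (R 4.3.3) compared the genotypes by its robust quasi-likelihood test, adjusted by Benjamini-Hochberg over 14058 genes, with calls below 0.05. Each SE was derived from the log2 fold change and its F statistic. The test was checked on simulated counts. Intervals of log2 ratios come from the fit and take in the scatter among libraries. Counting intervals of pooled ratios and limits for a count of 0 cover only counting error, and reads are not independent molecules. Exon lengths and overlaps come from GENCODE M21 and gene order and promoters from RefSeq (GRCm38.p6), by symbol (142 of 148 members in GENCODE M21).

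The members and lists were chosen with earlier results of these data known. Members averaging at least 5 CPM in a group are given by library, others by level or count, and untested members of at least 10 counts are named. Each list has its counts, its median, its most abundant gene and up to 3 called genes of smallest adjusted p; further genes were named as partners of a member, and the most abundant gene of 1 list is not reported here. Alternatives were DESeq2 1.42.0, limma-voom (limma 3.58.1), other scalings and filters, a threshold of 0.01, the sample number as a block, and leaving out each library.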

Additional observations from a re-analysis of the deposited data

Results flagged for a closer look

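For each of the 41 tested members, the libraries of both groups were searched for 1 that stood far from the other 3 of its group by Dixon's criterion. It was met in 7 of 82 cases, and by chance about 5% of cases would meet it. YAP5SA 3 was the highest of its group for Cxcr4 (2.06 CPM, others 1.27 to 1.36 CPM), Il17rc (16.2 CPM, others 11.1 to 11.8 CPM) and Il22ra1 (5.86 CPM, others 3.75 to 4.09 CPM). YAP5SA 2 was the lowest for Il10rb (28.2 CPM, others 30.9 to 31.1 CPM) and YAP5SA 4 for Il1rn (59.3 CPM, others 74.2 to 76.7 CPM). Control 2 was the lowest for Il18r1 (14.1 CPM, others 17.6 to 18 CPM), and control 4 was the highest for Il4ra (54.6 CPM, others 43.9 to 45.7 CPM). The calls of Cxcr4, Il10rb, Il18r1, Il1rn and Il4ra held under the alternatives run, and those of Il17rc and Il22ra1, which did not pass the test, did not change. The log2 ratio of Il17rc turned from 0.13 to −0.0074 without YAP5SA 3.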

How the results depend on the processing

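Under the alternatives run, between 9 and 13 members were called higher and between 16 and 21 lower, beside 10 and 19, so no count moved by 1.5 times or more. Leaving out 1 library gave 10 to 12 higher and 17 to 18 lower among the members, and 23 to 25 higher and 54 to 58 lower among the pathway genes. Of the members called, Ccl20, Cxcl16 and Il6st lost their call under some alternative, all 3 of them with scaling by library size alone or a threshold of 0.01, and Il34 gained one. Of the pathway genes that the lists' rule named, Tab2 lost its call as given above. Jak1 lost its call with no filter on low counts (edgeR adjusted p = 0.0695), and Tnfrsf21 gained one without YAP5SA 3 (edgeR adjusted p = 0.0219). At a minimum count of 20, Cxcl1 and Il17rb, both called, and Il18bp were no longer tested. The direction turned in 4 members that had not passed, without a single YAP5SA library each. Their log2 ratios ranged, over the fits without 1 library, over −0.15 to 0.24 for Ccl27a, −0.25 to 0.037 for Il17d, −0.0074 to 0.19 for Il17rc and −0.12 to 0.22 for Il20rb. Samples of both groups share numbers in the labels, but same-numbered libraries did not deviate together (correlations −0.10, −0.11, 0.09 and 0.03). With the sample number as a block, 10 members were called higher and 17 lower, and 24 pathway genes higher and 55 lower. Depth limits members below 1 CPM, whose values rest on few reads.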

Other observations

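Members too low for the filter were also tested with no filter on low counts, an alternative to the reported test. Ccl9, a CC chemokine of myeloid cells, had 7 and 49 counts in controls and YAP5SA (edgeR adjusted p = 0.000224), Il24, a cytokine of the IL-10 family, had 9 and 48 (0.00104), and Ccl28, a mucosal chemokine, had 0 and 12 (0.0147). Cxcl10, an interferon-induced chemokine, had 48 and 7 (0.000522), Il1rl1 had 18 and 0 (0.00228), Il5ra, the IL-5 binding chain, had 14 and 0 (0.0107) and Il1bos had 20 and 0 (0.0011). The groups of Il24 and of Il5ra overlapped. Ccl28 was at 0.45 CPM in YAP5SA 3 and at most 0.17 CPM in the other YAP5SA libraries. The other untested members did not pass in that setting. Those with at least 10 counts, not named so far, had the following counts in controls and YAP5SA. Among the chemokines these were Ccl17 7 and 16, Ccl5 17 and 5, Ccl6 5 and 8, Cxcl14 10 and 4, Cxcl2 10 and 2 and Cxcl5 18 and 3. Among the receptors they were Ccr1 9 and 6, Ccr2 14 and 3, Ccr7 18 and 4, Il23r 2 and 9, Il27ra 14 and 2, Il2rb 24 and 12, Il2rg 7 and 3 and Il7r 3 and 15. The remaining members were Il16 10 and 10, Il23a 12 and 1, Il4i1 4 and 10, Il7 28 and 15, Tnfsf10 6 and 6, Tnfsf13b 4 and 6 and Tnfsf15 9 and 2.

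Receptors for interferons, taken from the list of other cytokines after their values were seen, did not all go the same way. Ifngr2 (84.6 ± 2.7 CPM in controls, 58.4 ± 2.5 CPM in YAP5SA), Ifnar1 (68.9 ± 3.3 CPM in controls, 52.7 ± 3.5 CPM in YAP5SA) and Ifnar2 (17.1 ± 1.5 CPM in controls, 10.7 ± 0.49 CPM in YAP5SA) fell, as Ifngr1 did. Ifnlr1, the chain that binds interferon lambda and pairs with the product of Il10rb, rose (21.0 ± 3.5 CPM in controls, 38.5 ± 2.9 CPM in YAP5SA; log2 ratio 0.88, SE 0.10, adjusted p = 1.08e-06).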
